A study of Mus musculus with 6 samples.

Results

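The genes described here are the mouse serpins other than those of clotting and complement: every protein-coding gene whose symbol starts with Serpin, without the antithrombin gene Serpinc1, the heparin cofactor gene Serpind1, the antiplasmin gene Serpinf2 and the C1 inhibitor gene Serping1. The table of expression values held 57 such genes among its 48432, and 30 of the 57 had 1 TPM or more in 2 or more samples. TPM is a share of transcripts that takes gene length into account. The other 27 genes peaked at 1.56 TPM, and 10 of the 57 genes were listed at 0 in every sample.

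Serpins are single-chain proteins that mostly inhibit serine or cysteine proteases. A protease cuts the exposed reactive centre loop, the serpin snaps into another fold, and the protease stays trapped on it, so the bases that encode this loop set which protease is caught. The liver secretes many clade A serpins into blood, among them the antitrypsins and the antichymotrypsins, while clade B serpins stay inside cells and protect them from their own or incoming proteases. A few family members inhibit nothing and carry hormones (corticosteroid-binding and thyroxine-binding globulin) or fold collagen (Serpinh1).

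Hepatocytes were isolated from mice of the FVB strain, and no genetic change is named for any group. The 3 groups of 2 samples were adults on normal chow (normal fed), adults kept on feed with DDC for 4 weeks, and fetuses of embryonic day 18 (E18), for which the livers of about 8 embryos were pooled per sample. DDC is a compound that disturbs heme synthesis and is fed to injure liver and bile ducts. The age and sex of the adults are not named, nor whether adult samples came from separate animals, so p-values measure only the spread between these samples, which may be technical. Samples are called 0 and 1 within a group. Fold changes are differences of log2(TPM + 1) with their SE, tested with limma across 14307 genes and called at an adjusted p (Benjamini-Hochberg) under 0.05.

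Depth is unknown, since only TPM were at hand. The samples had 10401 to 13983 genes at 1 TPM or more. Of all genes tested, the median difference was 0.45 (log2) for DDC fed against normal fed and 1.06 for E18 against normal fed, and a scaling on the median ratio of genes brought these to 0 and 0.08; directions that turn with the scaling are given beside the gene. Hepatocyte markers summed to 56804 and 56043 TPM under normal feeding, 34317 and 32984 TPM with DDC and 12265 and 8139 TPM at E18, although the albumin gene Alb was listed at 0 in all 6 samples and Fgb in both E18 samples. Apoa2, at 29804 and 37335 TPM under normal feeding and 18253 and 18245 TPM with DDC, made up most of the adult sums. Of 9 hepatocyte markers fitted with DDC, Cyp2e1 was lower and 8 did not pass, at a median of -0.03 (log2). At E18 6 were lower and 2 did not pass, at a median of -1.68. Of all genes tested, 3.0% were lower with DDC and 12.6% at E18. Markers of other liver and blood cells were present as well. Macrophage markers summed to 163 and 134 TPM under normal feeding, 1320 and 1618 TPM with DDC and 4073 and 5238 TPM at E18. In samples of this kind, fewer cells of a type and less RNA per cell cannot be told apart.

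An exact 0 in both samples of a group, for a gene that reached 100 TPM or more elsewhere, was treated as a failed estimate and left out of the fit. This applied to 80 genes of the table and to 6 serpins: Serpina1a, Serpina1c, Serpina3k and Serpina3m in normal fed samples, and Serpina1b and Serpina1d in both adult groups. Their fits therefore dropped those samples.

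**Figure D1:**
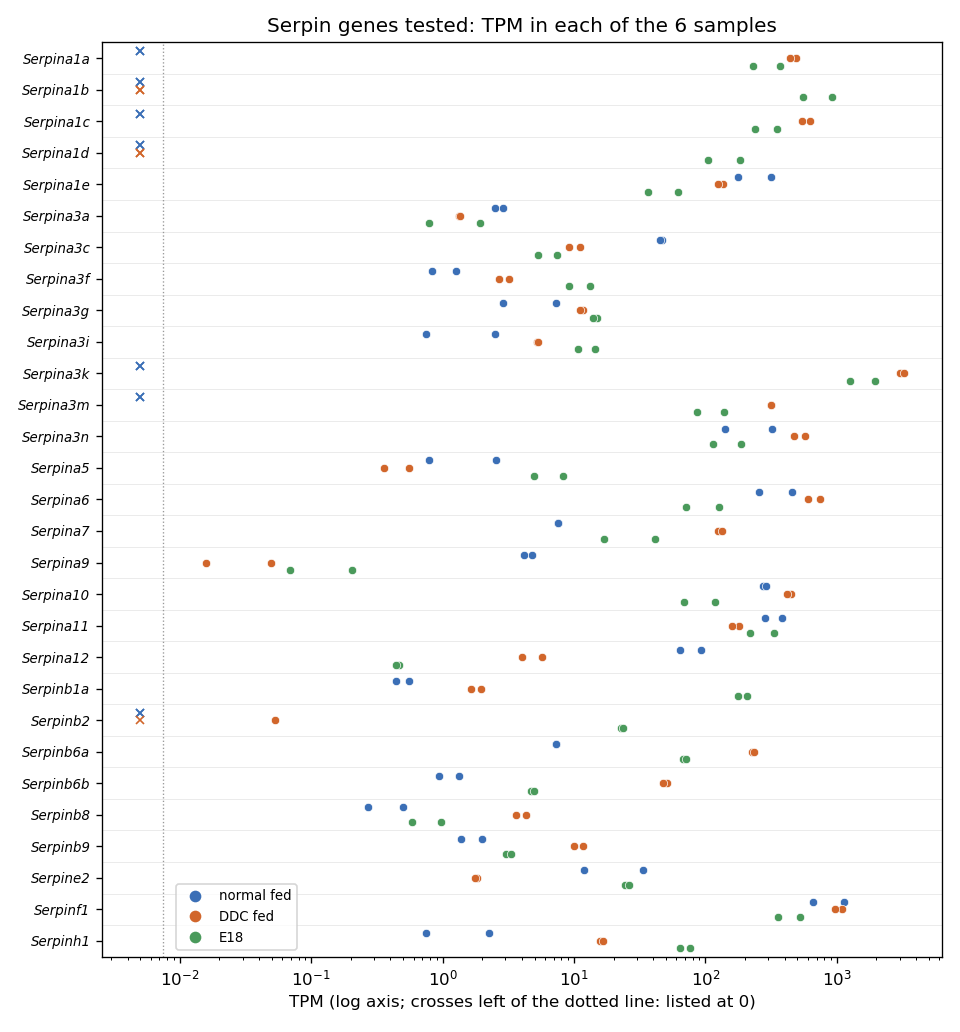
TPM of 29 serpin genes tested, 1 row per gene and 1 point per sample on a log axis, coloured by group; crosses on the left are values listed at 0. Serpinb6a and Serpinb6b lie highest in the DDC fed samples, Serpinb1a and Serpinb2 in the E18 samples, and Serpina12, Serpina9 and Serpina3c in the normal fed samples.

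Against normal fed samples, 24 serpins could be fitted for DDC feeding: 11 rose, 5 fell and 8 did not pass the test, where 37.3% of all genes tested passed (34.3% higher and 3.0% lower). Their median difference was 0.93 (log2) against 0.45 over all genes. For E18 against normal fed samples 12 serpins were higher, 8 lower and 4 of the 24 did not pass, where 75.5% of all genes passed (62.9% higher and 12.6% lower). The serpin median was 0.50 there and that of all genes 1.06. With median-ratio scaling the split of serpins became 7 higher and 8 lower for DDC feeding, and 8 higher and 10 lower for E18. These 2 comparisons share the normal fed samples. Serpinb2, Serpina1b and Serpina1d reached 1 TPM in E18 samples only, Serpinb8 in DDC fed samples only and Serpina9 in normal fed samples only, so these 5 entered through the group where they are high.

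The antitrypsin family, Serpina1, inhibits neutrophil elastase and related proteases in blood, and the mouse carries several copies side by side on chromosome 12. The 5 copies measured here differ little as a whole: over 1242 coding bases any pair was 96.3% to 98.5% identical. Pairs were less alike, at 84.8% to 93.9%, from the conserved hinge of the reactive centre loop onward. That stretch is shown because the loop sets which protease is caught. It covers 66 bases in exon 5 of 5, taken from GENCODE M21 transcripts on GRCm38, 5′ to 3′ on the coding strand, with capitals at the 15 bases that are not the same in all 5 copies.
Serpina1a: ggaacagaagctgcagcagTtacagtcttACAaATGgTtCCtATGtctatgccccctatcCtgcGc
Serpina1b: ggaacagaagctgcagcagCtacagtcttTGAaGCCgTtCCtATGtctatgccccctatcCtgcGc
Serpina1c: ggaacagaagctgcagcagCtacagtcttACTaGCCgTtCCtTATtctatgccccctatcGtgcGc
Serpina1d: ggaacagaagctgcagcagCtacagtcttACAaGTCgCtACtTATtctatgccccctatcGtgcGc
Serpina1e: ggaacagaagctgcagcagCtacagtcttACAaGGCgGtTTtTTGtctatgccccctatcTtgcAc
These lie on the minus strand of GRCm38 at chr12:103853765-103853830 for Serpina1a, chr12:103728332-103728397 for Serpina1b, chr12:103895102-103895167 for Serpina1c, chr12:103763770-103763835 for Serpina1d and chr12:103947108-103947173 for Serpina1e. Serpina1c and Serpina1d differ at 4 of these bases, fewer than any other pair, and Serpina1a and Serpina1e at 10.

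Serpina1e was the only copy with a value above 0 in all 6 samples. It stood at 314 and 177 TPM under normal feeding, 137 and 125 TPM with DDC and 62.3 and 36.4 TPM at E18, so the groups did not overlap. The difference was -2.28 ± 0.36 for E18 against normal fed (adjusted p = 0.001), and for DDC fed against normal fed it was -0.85 ± 0.36, which did not pass (adjusted p = 0.11). The latter passed at -1.52 under median-ratio scaling (adjusted p = 0.011) and -1.26 without normal fed sample 1 (adjusted p = 0.031), and also with the replicate block (adjusted p = 0.03). DDC fed samples stood above E18 by 1.44 ± 0.36 (adjusted p = 0.011), a call that was lost without DDC fed sample 0 or without E18 sample 1 (adjusted p up to 0.11 with a sample left out).

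The remaining copies could be compared only in part. Serpina1a was at 486 and 439 TPM in DDC fed and 366 and 228 TPM in E18 samples, a difference of 0.67 ± 0.30 from 2 groups that did not pass (adjusted p = 0.099), but was 1.202 and passed under median-ratio scaling (adjusted p = 0.019). Serpina1c was at 627 and 543 TPM in DDC fed and 348 and 237 TPM in E18 samples. DDC fed was higher by 1.02 ± 0.29 (adjusted p = 0.022), but not with either DDC fed sample or E18 sample 1 left out (adjusted p up to 0.15). Serpina1b at 923 and 555 TPM and Serpina1d at 184 and 105 TPM had values in E18 samples alone and could not be compared. Summed over the 5 copies, the deposited values came to 314 and 177 TPM under normal feeding, 1250 and 1107 TPM with DDC and 1884 and 1162 TPM at E18. The normal fed sum is that of Serpina1e alone, and the DDC fed sum lacks Serpina1b and Serpina1d. The sums of the groups are therefore not like for like.

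How far reads can be told apart between genes was checked on the annotated transcripts. Of all stretches of 100 bases in Serpina1c, 58.5% also occur unchanged in a transcript of another gene, against 49.9% for Serpina1a, 29.3% for Serpina1d, 20.6% for Serpina1b and 14.8% for Serpina1e. Serpina1e, with the smallest shared part, was the copy with no value at 0. The other copies did not follow the shares. Serpina1c and Serpina1a were at 0 in normal fed samples only, and Serpina1d and Serpina1b, with smaller shared parts, in both adult groups. A link between shared stretches and zeros was not tested. For Serpina3k and Serpina3m, the other genes listed at 0 in a group, the shares were 4.85% and 6.09%, and their annotated spans start at the same base, chr12:104338486. Serpina11 shared 41.9% with a single overlapping transcript, Gm28577, and was listed at 0 in no sample. The 16 other tested serpins outside the Serpina1 and Serpina3 families shared no stretch of 100 bases with another gene. Values of single Serpina1 copies are therefore uncertain, and how reads were divided between copies is not given in the sources used here.

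**Figure D2:**
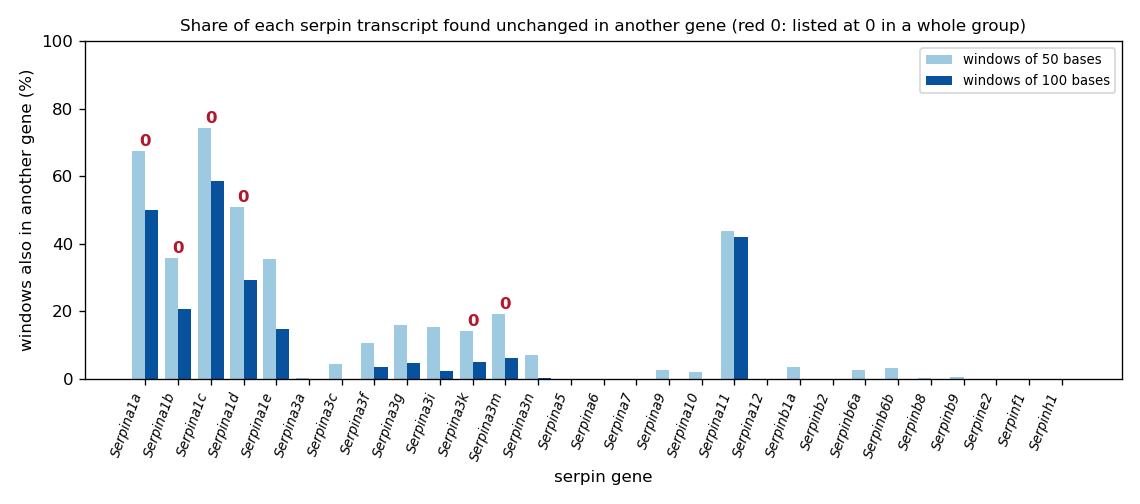
Share of stretches of 50 bases (light bars) and 100 bases (dark bars) of each serpin transcript that occur unchanged in another gene, in percent; a red 0 marks genes listed at 0 in a whole group. The Serpina1 copies and Serpina11 reach 14.8% to 58.5% at 100 bases, and every other serpin shown stays at or under 6.09%.

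The antichymotrypsin family, Serpina3, is a single gene in humans and a row of 10 protein-coding members here, which inhibit different proteases because their loops have diverged. Serpina3k, known as a kallikrein-binding protein of plasma, had the highest listed level of the DDC fed and E18 samples among the serpins outside clotting and complement. It was at 3046 and 3233 TPM in DDC fed samples and at 1967 and 1261 TPM in E18 samples, a difference of 0.99 ± 0.36 without normal fed samples (adjusted p = 0.052). It was 1.52 and passed under median-ratio scaling (adjusted p = 0.023), and it passed with the replicate block (adjusted p = 0.037). Its neighbour Serpina3m was at 317 and 317 TPM in DDC fed and 138 and 86.9 TPM in E18 samples. Serpina3m was higher with DDC by 1.53 ± 0.28, also without normal fed samples (adjusted p = 0.0048).

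Serpina3n, an inhibitor of granzyme B and elastase-like proteases that liver makes in the acute phase, stood at 323 and 140 TPM under normal feeding, 577 and 469 TPM with DDC and 185 and 113 TPM at E18. Both DDC fed samples were above both normal fed samples, and the normal fed and E18 samples overlapped. For E18 against normal fed the difference was -0.55 ± 0.43, which did not pass (adjusted p = 0.28). Under median-ratio scaling it was -1.75 and passed (adjusted p = 0.0054). It was -1.15 without normal fed sample 1 and 0.046 without normal fed sample 0. The difference with DDC was 1.29 ± 0.43 and did not pass (adjusted p = 0.057). With normal fed sample 0 left out it was 1.88 with an adjusted p of 0.0053, over a range of 0.0053 to 0.24 across all alternatives. DDC fed samples exceeded E18 by 1.84 ± 0.43 (adjusted p = 0.009), except without DDC fed sample 0 or E18 sample 1 (adjusted p up to 0.11).

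Serpina3c moved the other way. It was at 47.0 and 45.3 TPM under normal feeding, 11.1 and 9.17 TPM with DDC and 7.41 and 5.28 TPM at E18, with no overlap between any 2 groups. It fell by 2.09 ± 0.23 with DDC (adjusted p = 0.00071) and differed by -2.70 ± 0.23 at E18 (adjusted p = 4.66e-05). The call between DDC fed and E18 samples, 0.61 ± 0.23 with an adjusted p of 0.049, was lost with either sample of either group left out (adjusted p up to 0.28). The loop bases of the 4 Serpina3 members with the highest mean TPM are shown to set the gene that fell beside the abundant ones. Capitals mark the 37 of 66 bases that are not the same in all 4, again in exon 5 of 5 from GENCODE M21.
Serpina3c: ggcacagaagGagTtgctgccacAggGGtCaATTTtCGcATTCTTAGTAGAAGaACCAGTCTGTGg
Serpina3k: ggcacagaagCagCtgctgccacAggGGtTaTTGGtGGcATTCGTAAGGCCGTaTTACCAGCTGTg
Serpina3m: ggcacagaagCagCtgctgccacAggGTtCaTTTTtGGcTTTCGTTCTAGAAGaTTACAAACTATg
Serpina3n: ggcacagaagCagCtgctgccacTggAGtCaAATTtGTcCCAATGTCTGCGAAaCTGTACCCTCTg
On GRCm38 they lie at chr12:104147322-104147387 on the minus strand for Serpina3c, and on the plus strand at chr12:104345269-104345334 for Serpina3k, chr12:104393769-104393834 for Serpina3m and chr12:104413448-104413513 for Serpina3n. Serpina3k and Serpina3m were 75.8% identical over these bases, and Serpina3c and Serpina3n 57.6%, the highest and lowest of the 6 pairs.

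Serpina3f, Serpina3g and Serpina3i are 3 neighbouring genes of low level, of which Serpina3g encodes an intracellular inhibitor of cysteine cathepsins. Serpina3f was at 1.26 and 0.84 TPM under normal feeding, 3.19 and 2.67 TPM with DDC and 13.3 and 9.18 TPM at E18. Serpina3g was at 7.26 and 2.86 TPM under normal feeding, 11.6 and 11.03 TPM with DDC and 14.9 and 14.0 TPM at E18. Serpina3i was at 2.48 and 0.74 TPM under normal feeding, 5.22 and 5.34 TPM with DDC and 14.5 and 10.7 TPM at E18. For each of the 3 genes all DDC fed samples lay above the normal fed samples and below the E18 samples. The differences from normal fed samples were largest at E18, with 2.56 ± 0.23 for Serpina3f (adjusted p = 6.58e-05), 2.45 ± 0.34 for Serpina3i (adjusted p = 0.00059) and 1.45 ± 0.35 for Serpina3g (adjusted p = 0.0081). Quantile normalization turned the Serpina3g difference to -0.026, and its call at E18 was lost without either E18 sample (adjusted p up to 0.09).

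With DDC the same genes were higher by 0.94 ± 0.23 (Serpina3f, adjusted p = 0.019), 1.35 ± 0.34 (Serpina3i, adjusted p = 0.022) and 1.13 ± 0.35 (Serpina3g, adjusted p = 0.045). All 3 calls were lost under median-ratio scaling and when either DDC fed sample was left out, with adjusted p up to 0.13, 0.10 and 0.18 over the samples left out. Serpina3f was also lost without normal fed sample 1, and the other two without either E18 sample. Between DDC fed and E18 samples, Serpina3f differed by -1.62 ± 0.23 (adjusted p = 0.00092). Serpina3i differed by -1.10 ± 0.34 (adjusted p = 0.027), but not with either DDC fed or either E18 sample left out (adjusted p up to 0.20).

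The start regions of these 3 genes share a stretch with the letters TTCNNNGAA, the form to which STAT factors of cytokine signalling bind. RefSeq promoters on GRCm38.p6 were searched on both strands, and 8.3% of 32851 promoters of 300 bases hold these letters. The 69 bases around the match are shown because the stretch is alike in the 3 neighbours. The matching 9 letters are in capitals, in the direction of transcription.
Serpina3f: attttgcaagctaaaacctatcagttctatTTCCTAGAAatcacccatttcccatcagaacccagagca
Serpina3g: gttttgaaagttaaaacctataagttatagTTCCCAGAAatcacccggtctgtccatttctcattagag
Serpina3i: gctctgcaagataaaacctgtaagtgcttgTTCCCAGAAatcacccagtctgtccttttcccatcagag
They lie on the plus strand at chr12:104214393-104214461, chr12:104236084-104236152 and chr12:104262990-104263058. At 38 of the 69 positions all 3 genes carry the same base. The match starts 121 bases before the RefSeq start of Serpina3f, 33 bases before that of Serpina3g and 102 bases before that of Serpina3i. Over the family, 6 of the 23 tested serpins with a RefSeq promoter held TTCNNNGAA, while the promoter of Serpina3n held none of the 7 motifs searched. Besides these neighbours they were Serpina11, lower with DDC, Serpinb2, which did not pass with DDC, and Serpinb6a, higher with DDC. A link between the letters and the levels was not tested. The other 6 motifs, each on both strands, were TATAAA (5 of 23 serpins, 13.6% of all promoters), TGACNNNGC (1 and 12.4%), TGANTCA (6 and 7.81%), GGAATG (5 and 14.7%), GTTAAT (8 and 7.1%) and the interferon response element ISRE (3 and 3.44%). The serpins with TGANTCA include Serpina1a, Serpina1b, Serpina1c and Serpina1d, and those with GTTAAT include the same copies and Serpina1e. As these are close copies of one another, their matches are not separate cases. For every motif serpins were counted by gene, the 23 having 28 promoters, and the background by promoter. The serpin counts and the percentages are therefore not like for like. A match describes the letters only.

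Serpina3a, the last of this family tested, was at 2.88 and 2.49 TPM under normal feeding, 1.33 and 1.35 TPM with DDC and 1.91 and 0.79 TPM at E18. At E18 it was lower, with a difference of -0.69 ± 0.23 (adjusted p = 0.032), a call that was lost when any sample but E18 sample 0 was left out (adjusted p up to 0.11). With DDC Serpina3a differed by a similar -0.65 ± 0.23, without overlap, which did not pass (adjusted p = 0.069). It passed at -1.16 under median-ratio scaling (adjusted p = 0.0084) and -1.46 under quantile normalization (adjusted p = 0.0017). The replicate block (adjusted p = 0.04) and the fit of only the compared groups (adjusted p = 0.037) passed too. Serpina3b and Serpina3j stayed under 1 TPM in all samples.

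**Figure D3:**
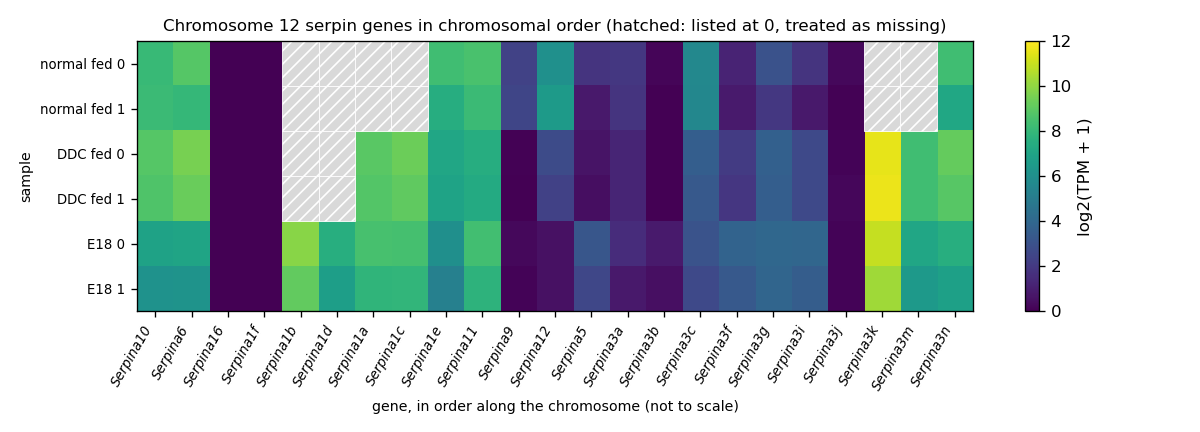
log2(TPM + 1) of the 23 serpins on chromosome 12 in their order along it, 1 row per sample; hatched cells are values listed at 0 and treated as missing. Genes with high and with low values stand side by side, and the missing values sit in 2 runs of neighbours, Serpina1b to Serpina1c and Serpina3k to Serpina3m.

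The hormone carriers behaved differently from each other. Serpina6, corticosteroid-binding globulin, carries glucocorticoids in blood. It stood at 454 and 254 TPM under normal feeding, 748 and 601 TPM with DDC and 128 and 71.3 TPM at E18, and no 2 groups overlapped. At E18 it was below the normal fed level, with a difference of -1.82 ± 0.39 (adjusted p = 0.0044; 0.058 without E18 sample 1). The rise to DDC fed samples, 0.98 ± 0.39, did not pass (adjusted p = 0.09), but with normal fed sample 0 left out it was 1.40 and passed (adjusted p = 0.022, where all alternatives ranged from 0.016 to 0.52). DDC fed samples were above E18 by 2.80 ± 0.39 (adjusted p = 0.0008).

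Serpina7, thyroxine-binding globulin, is encoded on the X chromosome at chrX:139079257-139085236 and carries thyroid hormone. It was at 7.59 and 7.49 TPM in normal fed samples and at 125 and 133 TPM in DDC fed samples, with 41.6 and 16.9 TPM at E18. Every DDC fed and E18 sample lay above both normal fed samples. It rose with DDC by 3.93 ± 0.39 (adjusted p = 0.0005), a call kept in every alternative tried with adjusted p up to 0.0082. At E18 it was higher by 1.69 ± 0.39 (adjusted p = 0.0062), but not under median-ratio scaling or quantile normalization (0.57 and 0.49). DDC fed samples exceeded E18 samples by 2.24 ± 0.39 (adjusted p = 0.0023).

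Of 7 other carriers of steroid, thyroid hormone, vitamins or lipid, 4 could be fitted with DDC and none passed in limma, with 0 at an unadjusted p under 0.05. Transthyretin (Ttr), another thyroid hormone carrier, had 9535 and 9640 TPM under normal feeding and 7055 and 6701 TPM with DDC, a difference of -0.48 (adjusted p = 0.36). At E18 4 of 5 were lower and 1, the sex hormone carrier Shbg, higher, where 12.6% of all genes were lower and 62.9% higher. At E18 Ttr was lower, with a difference of -1.61 (adjusted p = 0.0075). The difference between Serpina7 and Ttr with DDC was not tested itself.

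Among the other plasma serpins, Serpina12 and Serpina9 fell with DDC and were lower at E18 too. Serpina12 (vaspin), known as an adipokine, lies at chr12:104028769-104044443. It was at 64.4 and 91.9 TPM under normal feeding, 5.73 and 4.03 TPM with DDC and 0.47 and 0.44 TPM at E18. These levels did not overlap between groups. It fell by 3.74 ± 0.26 with DDC (adjusted p = 0.00015) and differed by -5.74 ± 0.26 at E18 (adjusted p = 3.18e-06), and DDC fed samples were 2.0 ± 0.26 above E18 (adjusted p = 0.00055). All 3 calls were kept in every alternative tried.

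Serpina9, known as centerin of germinal centre B cells, had 4.18 and 4.77 TPM in normal fed samples against 0.05 and 0.02 TPM in DDC fed and 0.21 and 0.07 TPM in E18 samples. Its difference was -2.4 ± 0.12 with DDC (adjusted p = 5.56e-05) and -2.27 ± 0.12 at E18 (adjusted p = 5.99e-06). Lymphocyte markers summed to 0.45 and 0.32 TPM in the normal fed samples, where Serpina9 was highest.

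Serpina11, an antitrypsin-like gene whose target is unsettled, was at 381 and 286 TPM under normal feeding, 180 and 160 TPM with DDC and 334 and 216 TPM at E18. Normal fed and E18 samples overlapped, and both DDC fed samples lay below all others. With DDC the difference was -0.96 ± 0.29 (adjusted p = 0.039). That call was lost with any sample but normal fed sample 1 left out (adjusted p up to 0.22). At E18 the difference was -0.29 ± 0.29 (adjusted p = 0.38), and under median-ratio scaling it was -1.50 and passed (adjusted p = 0.0025).

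Serpina10, the protein Z-dependent inhibitor of activated factor X, was at 272 and 290 TPM under normal feeding, 450 and 420 TPM with DDC and 119 and 69.0 TPM at E18. At E18 it was lower, with a difference of -1.62 ± 0.29 (adjusted p = 0.002). The DDC difference of 0.63 ± 0.29 did not pass (adjusted p = 0.13) and was -0.045 under median-ratio scaling. DDC fed samples were above E18 by 2.25 ± 0.29 (adjusted p = 0.00057).

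Serpinf1, the non-inhibitory pigment epithelium-derived factor, had the highest listed value of the normal fed samples among these serpins. It stood at 1130 and 663 TPM there, 1104 and 972 TPM in DDC fed and 522 and 356 TPM in E18 samples. Normal fed and DDC fed samples overlapped, at a difference of 0.26 ± 0.35 (adjusted p = 0.59) that turned to -0.41 under median-ratio scaling. At E18 its difference from normal fed samples was -1.0 ± 0.35 (adjusted p = 0.034), a call lost with any sample but normal fed sample 1 left out (adjusted p up to 0.21). DDC fed samples exceeded E18 samples by 1.26 ± 0.35 (adjusted p = 0.017), but not with either DDC fed sample or E18 sample 1 left out (adjusted p up to 0.14).

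Serpina5, the protein C inhibitor, which in mice is made mainly outside the liver, was at 2.53 and 0.78 TPM under normal feeding, 0.55 and 0.36 TPM with DDC and 8.25 and 4.94 TPM at E18. It was higher at E18 by 1.56 ± 0.35 (adjusted p = 0.0058), a difference that was 0.71 under median-ratio scaling and -0.18 under quantile normalization, and whose adjusted p was 0.08 without E18 sample 0. The value with DDC was -0.79 ± 0.35 and did not pass (adjusted p = 0.12). It passed at -1.16 under median-ratio scaling (adjusted p = 0.039), -1.54 under quantile normalization (adjusted p = 0.01) and -1.28 without normal fed sample 1 (adjusted p = 0.023), and also with the replicate block (adjusted p = 0.025). DDC fed and E18 samples were apart by -2.35 ± 0.35 (adjusted p = 0.0012).

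Clade B held the steepest rises with DDC. Serpinb6a, an intracellular inhibitor of cathepsin G and trypsin-like proteases, lies at chr13:33917918-34002794. It was at 7.30 and 7.29 TPM in normal fed samples, 224 and 234 TPM in DDC fed samples and 66.9 and 70.7 TPM in E18 samples. Its neighbour Serpinb6b was at 1.33 and 0.94 TPM under normal feeding, 51.1 and 47.9 TPM with DDC and 4.73 and 4.998 TPM at E18. For both genes all DDC fed samples lay above all E18 samples, which lay above all normal fed samples. Serpinb6a rose by 4.79 ± 0.18 with DDC (adjusted p = 2.41e-05) and was 3.07 ± 0.18 higher at E18 (adjusted p = 8.23e-06). Serpinb6b rose by 4.57 ± 0.20 with DDC (adjusted p = 3.2e-05), and its E18 difference of 1.47 ± 0.20 (adjusted p = 0.00051) was -0.31 under quantile normalization. DDC fed samples exceeded E18 samples by 1.72 ± 0.18 for Serpinb6a (adjusted p = 0.0002) and by 3.11 ± 0.20 for Serpinb6b (adjusted p = 2.29e-05).

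Serpinb9, which inhibits granzyme B and so protects cells from killer lymphocytes, had 1.98 and 1.38 TPM under normal feeding, 10.02 and 11.7 TPM with DDC and 3.01 and 3.34 TPM at E18. Serpinb8, an inhibitor of furin-like proteases, had 0.50 and 0.27 TPM, 3.62 and 4.28 TPM, and 0.59 and 0.97 TPM in the same order. Both were highest in the DDC fed samples. They rose with DDC by 2.15 ± 0.20 (Serpinb9, adjusted p = 0.0004) and 1.84 ± 0.17 (Serpinb8, adjusted p = 0.00039) and were above E18 by 1.51 ± 0.20 (adjusted p = 0.00065) and 1.48 ± 0.17 (adjusted p = 0.00031). At E18 against normal fed samples Serpinb9 differed by 0.65 ± 0.20 (adjusted p = 0.022), which turned to -0.18 under median-ratio scaling and -1.03 under quantile normalization and was lost without either E18 sample (adjusted p up to 0.12). Serpinb8 differed there by 0.36 ± 0.17 (adjusted p = 0.089), which turned to -0.050 and -0.73 under those scalings.

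Serpinb1a and Serpinb2 were genes of the E18 samples. Serpinb1a guards neutrophils against their own elastase, cathepsin G and proteinase 3. It was at 0.44 and 0.55 TPM under normal feeding and 1.97 and 1.65 TPM with DDC, and at 178 and 209 TPM in E18 samples. The E18 difference from normal fed samples was 7.02 ± 0.20 (adjusted p = 1.84e-06). The small rise with DDC, 0.91 ± 0.20 (adjusted p = 0.013), was lost under median-ratio scaling and without either DDC fed sample (adjusted p up to 0.13).

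Serpinb2, plasminogen activator inhibitor 2, was listed at 0 in both normal fed samples and at 0.05 and 0 TPM in DDC fed samples. In E18 samples it was at 22.7 and 23.5 TPM, above the normal fed samples (adjusted p = 1.84e-06) and the DDC fed samples, where the difference of DDC fed against E18 was -4.55 ± 0.13 (adjusted p = 2.75e-06). With DDC against normal fed samples Serpinb2 differed by 0.04 ± 0.13, which did not pass (adjusted p = 0.86). Neutrophil markers, which include 3 of the proteases that Serpinb1a inhibits (Elane, Prtn3 and Ctsg), were like both genes highest in the E18 samples. They summed to 0.37 and 0.55 TPM in normal fed samples, where 8 of the 12 were listed at 0, to 3.26 and 4.25 TPM in DDC fed samples and to 57587 and 68683 TPM in E18 samples. All 5 that could be fitted were higher at E18, where 62.9% of all genes were. Every fitted marker of 4 more lists was higher there too: 10 of megakaryocytes and platelets (summed to 1.60 and 2.11 TPM in normal fed and 2058 and 2310 TPM in E18 samples), 7 erythroid (39.5 and 27.9 TPM against 12924 and 24214 TPM), 6 of mast cells and basophils (0.74 and 0.27 TPM against 117 and 152 TPM) and 6 of lymphocytes (0.45 and 0.32 TPM against 71.9 and 91.1 TPM). The part of these cells in the Serpinb1a and Serpinb2 results was not tested.

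Some markers of other cells were higher with DDC as well. Of all genes tested, 34.3% were higher with DDC and 62.9% at E18. All 13 macrophage markers were higher with DDC and all 13 at E18, with Cd14 at 0.87 and 1.09 TPM under normal feeding, 87.5 and 92.6 TPM with DDC and 158 and 146 TPM at E18. Between DDC fed and E18 samples 7 of the 13 were lower with DDC, 1 was higher and 5 did not pass. Of all genes, 46.9% were lower and 17.7% higher in that comparison. The macrophage marker that was higher was Vsig4, at 9.36 and 8.70 TPM under normal feeding, 77.4 and 83.7 TPM with DDC and 23.4 and 33.0 TPM at E18. Lyz2, at 2674 and 3352 TPM, made up most of the summed level at E18. Cholangiocyte markers rose with DDC for 4 of 9 fitted, not far from the share of all genes. They summed to 14.2 and 12.2 TPM under normal feeding and 105 and 123 TPM with DDC, with Cftr at 0 in both normal fed samples. Of 9 keratinocyte and squamous markers 2 could be fitted and 1 rose with DDC: Sprr1a, at 265 and 305 TPM with DDC, made up nearly all of their sum, and Krt14, Krt1, Dsg3 and Krt6a were at 0 in both groups. The part of any of these cells in the serpin results was not tested.

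**Figure D4:**
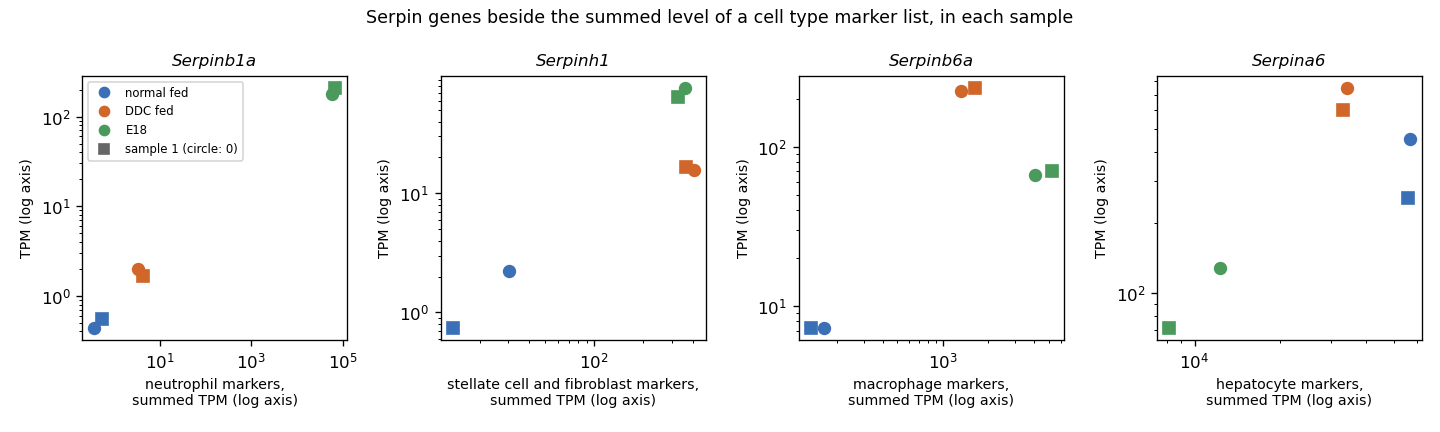
TPM of Serpinb1a, Serpinh1, Serpinb6a and Serpina6 against the summed TPM of a marker list in the same sample, on log axes, circles for sample 0 and squares for sample 1. Serpinb1a is highest where neutrophil markers are (57587 and 68683 TPM). Serpinh1 is highest in the E18 samples and summed stellate cell and fibroblast markers in the DDC fed samples. Serpinb6a is highest in the DDC fed samples and summed macrophage markers in the E18 samples. Serpina6 and summed hepatocyte markers are both lowest in the E18 samples, but Serpina6 is highest in the DDC fed and the markers in the normal fed samples.

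The proteases that serpins inhibit were counted from a list of 30, of which 25 could be fitted. With DDC 11 were higher and 1 lower, where 34.3% of all genes tested were higher and 3.0% lower. The median of 0.47 was near the 0.45 over all genes. Cathepsin S (Ctss), a lysosomal protease of macrophages, was at 13.2 and 10.02 TPM under normal feeding and 135 and 184 TPM with DDC and rose by 3.67 (adjusted p = 0.0002). Matriptase (St14), a membrane protease of epithelia, had 0.02 and 0.03 TPM under normal feeding and 14.6 and 8.63 TPM with DDC and rose by 3.58 (adjusted p = 0.00024). At E18 20 were higher and 4 lower, at a median of 1.44 against 1.06, where 62.9% of all genes were higher and 12.6% lower. Neutrophil elastase (Elane) was at most 0.05 TPM in normal fed samples and 876 and 1152 TPM in E18 samples, and proteinase 3 (Prtn3) 0.18 and 0.19 TPM and 837 and 1053 TPM.

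Serpine2, protease nexin 1, inhibits thrombin and urokinase at cell surfaces. It was at 33.5 and 11.9 TPM under normal feeding, 1.83 and 1.77 TPM with DDC and 24.5 and 26.4 TPM at E18. Both DDC fed samples lay below every other sample, and the E18 samples lay between the 2 normal fed samples. It fell by 2.92 ± 0.43 with DDC (adjusted p = 0.0025) and stood below E18, at -3.24 ± 0.43 (adjusted p = 0.00066), calls kept in every alternative tried. For E18 against normal fed samples the difference was 0.32 ± 0.43 (adjusted p = 0.52). This value turned to -0.83 under median-ratio scaling. It passed in opposite directions with 1 sample left out, at -0.39 without normal fed sample 1 (adjusted p = 0.049) and 1.03 without normal fed sample 0 (adjusted p = 0.0013).

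Of 10 other genes of the urokinase and plasminogen system, 7 were higher and 0 lower with DDC (0 lower by limma's unadjusted p too), and 6 higher and 1 lower at E18. Of all genes tested 34.3% were higher and 3.0% lower with DDC and 62.9% higher and 12.6% lower at E18, so the share higher at E18 was near that of all genes. The urokinase receptor Plaur was at 0.15 and 0.27 TPM under normal feeding, 3.47 and 5.54 TPM with DDC and 92.3 and 92.8 TPM at E18, higher by 2.16 with DDC (adjusted p = 0.00076). Tissue plasminogen activator (Plat), a target of Serpine2, was listed at 0 in both normal fed samples and at 3.12 and 4.14 TPM in DDC fed samples. Annexin A2, which binds this activator at the cell surface, was at 2.62 and 0.79 TPM under normal feeding and 282 and 297 TPM with DDC. Endothelial markers, of which 11 of 12 rose with DDC, summed to 55.6 and 17.9 TPM under normal feeding and 212 and 222 TPM with DDC, and their part in these results was not tested.

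Serpinh1 (HSP47), the collagen-specific chaperone of the endoplasmic reticulum, lies at chr7:99345376-99353239. It was at 2.23 and 0.74 TPM under normal feeding, 15.7 and 16.5 TPM with DDC and 76.6 and 64.3 TPM at E18. No 2 groups overlapped. It rose by 2.85 ± 0.31 with DDC (adjusted p = 0.00074) and was 4.91 ± 0.31 higher at E18 (adjusted p = 1.28e-05), and DDC fed samples stood below E18, at -2.06 ± 0.31 (adjusted p = 0.0013). All 3 calls were kept in every alternative tried.

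Among 21 genes of collagens and collagen folding, 11 rose and none fell with DDC, at a median of 0.93, and 16 were higher and none lower at E18, at a median of 1.65. All genes had medians of 0.45 and 1.06 there, with 34.3% and 62.9% higher. By limma's unadjusted p, 0 were lower with DDC and 0 at E18 as well. The collagen gene Col3a1 was at 0.49 and 0.26 TPM under normal feeding, 40.4 and 35.2 TPM with DDC and 76.8 and 75.5 TPM at E18. The lysyl hydroxylase Plod2 was at 0.06 and 0.03 TPM under normal feeding, 0.53 and 0.88 TPM with DDC and 10.4 and 10.3 TPM at E18. Stellate cell and fibroblast markers, which share Col1a1, Col1a2 and Col3a1 with this list, rose for 11 of 12 with DDC and 11 of 12 at E18. They summed to 30.1 and 13.7 TPM under normal feeding, 405 and 362 TPM with DDC and 357 and 325 TPM at E18. Between DDC fed and E18 samples 6 of the 12 were lower with DDC, 2 were higher and 4 did not pass. Of all genes, 46.9% were lower and 17.7% higher there. Col1a1 was among the markers lower with DDC, at 7.98 and 6.92 TPM with DDC and 29.3 and 29.6 TPM at E18. The part of these cells in the Serpinh1 result was not tested.

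Between DDC fed and E18 samples 28 serpins could be fitted: 14 were higher with DDC, 8 higher at E18 and 6 did not pass, where 64.6% of all genes tested passed (17.7% higher with DDC and 46.9% higher at E18). The median was 0.83 for the serpins and -0.54 for all genes. Those higher with DDC were Serpina1c, Serpina1e, Serpina3c, Serpina3m, Serpina3n, Serpina6, Serpina7, Serpina10, Serpina12, Serpinf1 and the 4 genes Serpinb6a, Serpinb6b, Serpinb8 and Serpinb9. Those higher at E18 included Serpinb1a, Serpinb2, Serpine2 and Serpinh1, and from clade A Serpina3f, Serpina3i and Serpina5.

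**Figure D5:**
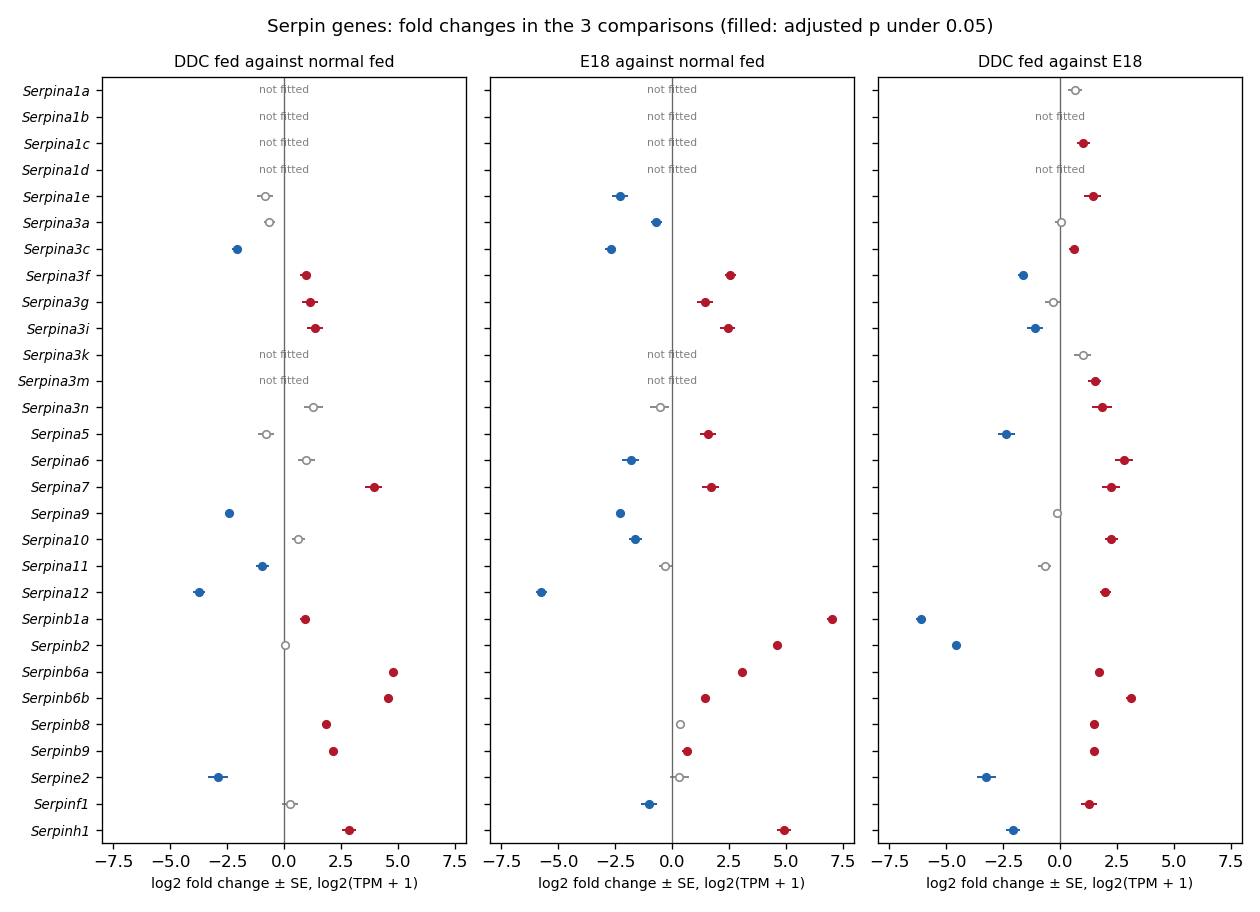
Fold change (difference of log2(TPM + 1)) with SE of 29 serpins in the 3 comparisons; filled points have an adjusted p under 0.05, red higher and blue lower, open points did not pass, and comparisons with a missing group are marked as not fitted. Serpinb6a (4.79) and Serpinb6b (4.57) lie farthest right with DDC, and Serpinb1a (7.02) at E18.

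Lists of neighbouring pathways are read against the shares of all genes (34.3% higher and 3.0% lower with DDC, 62.9% and 12.6% at E18). Of other protease inhibitors 13 of 28 rose and 0 fell with DDC (1 fell by limma's unadjusted p), led by the leukocyte protease inhibitor Slpi, at 1.34 and 1.21 TPM under normal feeding and 859 and 723 TPM with DDC (8.44, adjusted p = 1.6e-05). At E18 13 were higher and 5 lower. The broad-range plasma inhibitor A2m was at 0.04 and 0.01 TPM under normal feeding, at most 0.03 TPM with DDC and 924 and 587 TPM at E18, and its relative Mug1 at 2265 and 1032 TPM, 859 and 736 TPM, and 1.501 and 1.38 TPM. The 2 genes thus stood at opposite ends in normal fed and E18 samples.

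Acute phase genes, with which Serpina3n is usually grouped, rose with DDC for 13 of 24 and fell for 1, at a median of 1.24. Lipocalin 2 (Lcn2) went from 8.48 and 5.23 TPM to 4173 and 3342 TPM. At E18 9 of 23 were higher and 9 lower. Of 24 genes of the secretory pathway and its quality control, through which plasma serpins leave the cell, 3 rose and 2 fell with DDC and 2 were higher and 5 lower at E18. Syvn1, a ubiquitin ligase for misfolded proteins, fell by 1.06 with DDC (adjusted p = 0.013), and Erlec1, a lectin of the same disposal route, rose by 0.84 (adjusted p = 0.011).

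The 27 serpins that were not tested were mostly clade B genes, 20 of the 26 of that clade. Serpini1, neuroserpin, was at 0.01 and 0.03 TPM in normal fed samples and between 0.52 and 0.64 TPM in all DDC fed and E18 samples. Serpini2 reached 1.56 TPM in E18 sample 0 and was at 0.02 TPM in E18 sample 1. No other untested member reached 1 TPM in any sample.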

How the data were processed

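Poly(A) RNA of hepatocytes was sequenced as stranded libraries, per the labels' protocols. The authors deposited a table of TPM for 48432 genes in 6 samples, and each column sums to 1000000. Per the submitters' processing notes, the tools were STAR 2.4.2a, HTSeq, Cuffdiff 2.2.1, DESeq2, Trimmomatic, Picard 1.119 and bcl2fastq 2.17.1.14, on GRCm38 (mm10), without a role for each. Which tool gave the TPM is not given in the sources used here. Without counts, depth and counting error are unknown and no count test was run. Columns were assigned to groups by name, since they are numbered 0 and 1 and the titles otherwise.

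Gene IDs were matched to GENCODE M21, which held 48053 of them. All genes with 1 TPM or more in 2 or more samples were tested on log2(TPM + 1) in limma 3.58.1 (R 4.3.3), with 1 mean per group over all 6 samples, 3 residual degrees of freedom and a variance prior that follows the mean. Tests were two-sided, with p-values adjusted over all genes tested. A group listed at 0 in both samples, for a gene with at least 100 TPM elsewhere, was set missing. The fit was tested on simulated data. Named were the serpins past the filter, save 1 that is counted but not reported here, with fold changes where called or among the 10 highest, and up to 3 members per pathway list by adjusted p, with a few more chosen after their values were seen. The serpins and the lists were chosen with earlier results of these data known.

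Alternatives were pseudocounts of 0.1 and 5, no filter or one on a mean of 5 TPM, scaling by median ratio or quantiles, zeros kept or set missing from 10 TPM, protein-coding genes only, a replicate block, only the compared groups, a constant variance prior and each sample left out. TPM rescaled without genes listed at 0 in a group was added after the data were seen.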

Additional observations from a re-analysis of the deposited data

How the results depend on the processing

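Of 58 calls over 76 fitted comparisons of single serpins, 43 were kept in every alternative that uses all samples, and 38 also with each sample left out. The count of serpins higher with DDC, 11, was 7 under median-ratio scaling and 7 under quantile normalization, and the count lower, 5, was 8 under median-ratio scaling and 8 with the replicate block. The count higher at E18 than in normal fed samples, 12, was 8 under median-ratio scaling, 7 under quantile normalization and 18 with groups listed at 0 kept as 0. With 1 sample left out, 7 to 13 serpins were higher and 4 to 7 lower with DDC, 9 to 13 higher and 5 to 9 lower at E18, and 9 to 15 higher and 6 to 10 lower for DDC fed against E18. A lone sample is then assumed to vary like the other groups.

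Signs turned as follows, and the cause was not tested. Under median-ratio scaling the DDC differences became -0.41 for Serpinf1 and -0.045 for Serpina10, the E18 differences -0.83 for Serpine2, -0.050 for Serpinb8 and -0.18 for Serpinb9, and Serpina3g was 0.17 for DDC fed against E18. Under quantile normalization the E18 differences were -0.76 for Serpine2, -0.73 for Serpinb8, -0.18 for Serpina5, -0.026 for Serpina3g, -0.31 for Serpinb6b and -1.03 for Serpinb9, and for DDC fed against E18 they were 0.015 for Serpina9 and 0.42 for Serpina3g. Serpina3a for DDC fed against E18 was -0.064 after rescaling. With 1 sample left out, that value ranged from -0.32 (without E18 sample 1) to 0.39, Serpina3n at E18 from -1.15 to 0.046 (without normal fed sample 0), Serpina11 at E18 from -0.61 to 0.017 (without E18 sample 1), Serpine2 at E18 from -0.39 (without normal fed sample 1) to 1.03, and Serpinf1 with DDC from -0.13 (without normal fed sample 1) to 0.64.

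Columns share only a number across groups. Differences of sample 1 from sample 0 correlated across genes at 0.23 between normal fed and DDC fed, 0.14 between normal fed and E18 and 0.06 between DDC fed and E18. The replicate block gave 13 higher and 8 lower with DDC, 12 and 8 at E18, and 15 and 9 for DDC fed against E18. With unknown depth, low values such as those of Serpina9 in DDC fed samples have no counting interval.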

Other observations

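Some serpin genes are not classed as protein-coding by the annotation. Among them Serpina4-ps1, an unprocessed pseudogene at chr12:104080649-104086724 between Serpina12 and Serpina5, had 1365 and 1016 TPM in normal fed samples. Within each of these samples it was above every listed value of the protein-coding serpins outside clotting and complement. It stood at 1.70 and 1.64 TPM in DDC fed and 29.8 and 12.4 TPM in E18 samples. The difference was -8.79 ± 0.39 with DDC (adjusted p = 3.43e-05) and -5.86 ± 0.39 at E18 (adjusted p = 1.58e-05). No protein-coding serpin fell as far with DDC. Serpina3h, a transcribed pseudogene between Serpina3g and Serpina3i, had 1.87 and 0.88 TPM under normal feeding, 7.55 and 8.53 TPM with DDC and 16.5 and 12.8 TPM at E18, the same order as its 2 neighbours. Serpinb10, classed as a polymorphic pseudogene beside Serpinb2, was at 0 in normal fed samples and 30.002 and 36.9 TPM in E18 samples.

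The 2 E18 pools differed in plasma serpins, and so did the 2 normal fed samples. In normal fed samples the ratio of sample 1 to sample 0 was 0.56 for Serpina6, 0.59 for Serpinf1 and 0.99 for Serpina7. Of the serpins compared, 19 of 24 were lower in normal fed sample 1, 19 of 28 in DDC fed sample 1 and 23 of 30 in E18 sample 1. The median log2 difference was -0.28 for serpins and -0.22 for all genes in normal fed samples, and -0.52 and 0.01 at E18. In E18 samples the ratio was 0.60 for Serpina1b, 0.56 for Serpina6, 0.64 for Serpina3k, 0.68 for Serpinf1 and 0.41 for Serpina7. It was 1.17 there for Serpinb1a, 1.04 for Serpinb2 and 1.06 for Serpinb6a. Summed hepatocyte markers were lower in E18 sample 1 (8139 against 12265 TPM), and summed neutrophil markers higher (68683 against 57587 TPM). In normal fed samples 0 and 1 the hepatocyte markers summed to 56804 and 56043 TPM. The cause of the differences within groups was not tested.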
